A study of Mus musculus with 40 samples.

Results

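The collagen genes were followed in liver RNA from 40 mice, each library a separate mouse. A row of the expression table counted as a collagen gene when its symbol was Col, a number, the letter a and a number, and it was kept when its mean over the 40 libraries was at least 10 normalized read counts. This kept 34 of 42 collagen rows, out of 13776 genes tested. The mice of the d3 groups were homozygous for a deletion of exon 3 of Ghr, the growth hormone receptor gene (d3/d3), and the others were wild type (wt/wt, here WT). Mice were calorie restricted (CR, 40%) or fed ad libitum (AL), and both sexes were used, which gave 8 groups of 5 mice, numbered 1 to 5 within a group. The groups were d3 CR males, d3 AL males, d3 CR females, d3 AL females, WT CR males, WT AL males, WT CR females and WT AL females. All were of strain C57BL/6NJ, and the cohort was raised by in vitro fertilization with sperm of d3/d3 males. All had unrestricted food until weaning at 30 days, and the diets then differed for 30 days. The treatment protocol puts death at about 2 months, and the extraction protocol gives an age of 28 to 34 days.

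Collagens are matrix proteins whose chains wind around each other into a rope-like helix. Fibrillar collagens form the cables of connective tissue, type IV collagens the mesh of basement membranes, and type VI collagens beaded filaments around cells. In liver, fibrillar collagens come mainly from stellate cells and portal fibroblasts, while hepatocytes are a known source of the chain encoded by Col18a1, whose end fragment is endostatin. Skeletal muscle and its sheaths are rich in collagen, and muscle fibres are not part of liver.

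The results turn on a few members, and the genomic sequence just before the start of 3 of them is shown, with the space between a pair that is read in opposite directions. The windows hold 250 bases before the start in RefSeq's table for GRCm38, 5′ to 3′ on the gene's own strand. The Col27a1 window lies inside an intron of a longer transcript that GENCODE M21 annotates from an earlier start. Capitals mark the motifs searched on both strands, which were the TATA box (TATAAA), the CCAAT box (CCAAT) and the GC box (GGGCGG). The first window belongs to Col27a1, the member with the largest averaged diet difference, the second to Col5a3, the third to Col3a1, and the last is the 71-base space between Col4a4 and Col4a3.
Col27a1, chr4:63215162-63215411, plus strand: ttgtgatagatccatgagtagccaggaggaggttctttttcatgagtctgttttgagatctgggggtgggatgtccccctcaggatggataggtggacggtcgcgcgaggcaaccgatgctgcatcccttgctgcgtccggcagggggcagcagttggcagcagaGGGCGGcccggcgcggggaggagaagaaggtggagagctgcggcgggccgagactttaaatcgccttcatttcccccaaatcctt
Col5a3, chr9:20815068-20815317, minus strand: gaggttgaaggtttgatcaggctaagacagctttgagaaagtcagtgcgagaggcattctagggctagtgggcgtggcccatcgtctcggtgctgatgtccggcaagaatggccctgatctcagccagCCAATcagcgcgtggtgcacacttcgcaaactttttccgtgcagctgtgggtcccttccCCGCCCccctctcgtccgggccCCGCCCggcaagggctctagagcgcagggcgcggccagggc
Col3a1, chr1:45311288-45311537, plus strand: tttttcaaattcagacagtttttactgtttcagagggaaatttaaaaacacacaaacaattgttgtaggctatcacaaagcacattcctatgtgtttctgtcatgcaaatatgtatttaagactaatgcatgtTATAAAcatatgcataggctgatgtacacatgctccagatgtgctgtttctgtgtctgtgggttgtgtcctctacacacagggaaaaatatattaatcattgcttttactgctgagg
Between Col4a4 and Col4a3, chr1:82586850-82586920, minus strand: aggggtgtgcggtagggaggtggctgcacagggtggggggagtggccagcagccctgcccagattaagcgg
The Col27a1 window holds 1 GC box, the Col5a3 window 1 CCAAT box and 2 GC boxes, and the Col3a1 window 1 TATA box. The space between Col4a4 and Col4a3 holds none of these letters. Of all 32851 promoters in the table, 32.7% hold a GC box, 33.8% a CCAAT box and 12.4% a TATA box in the same 250 bases. For windows of 71 bases the shares are 20.7%, 13.3% and 4.41%. Of the 26 members with an entry in the table, 18 hold a GC box, 9 a CCAAT box and 3 a TATA box. A match is a description of letters and does not show a factor at work.

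Members were grouped by the kind of assembly they build. There were 9 fibrillar members, 8 of basement membranes and other networks, 6 of beaded filaments and anchoring fibrils, 5 fibril-associated, 2 multiplexins (Col15a1 and Col18a1) and 4 transmembrane or other members. The 8 rows left out had means of 1.013 (Col19a1) to 8.18 (Col28a1), and the member nearest to the limit was Col25a1 with 16.56 normalized read counts. Each of the 34 members kept had a mean over 10 in CR and in AL mice, and in each sex, taken alone, the lowest being 12.57 for Col4a6 in AL mice. Of the 34, 1 passed only through libraries rich in muscle transcripts, described below, Col23a1, with a mean of 33.17 in those and 9.721 in the others. Per kilobase of annotated exon, Col18a1 had by far the highest mean level, 5388 normalized read counts, ahead of Col4a1 with 272.9 and Col4a2 with 240.8. Col3a1 followed with 166.1, Col6a1 with 157.9, Col5a3 with 131.5, Col1a1 with 116.4, Col14a1 with 100.8, Col1a2 with 87.16 and Col27a1 with 77.71 per kilobase. The lowest member was Col25a1 with 1.279 per kilobase. Levels given below are not per length and are compared only within a gene.

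Several members lie beside each other in the genome (GRCm38, GENCODE M21). Col4a1 and Col4a2 start head to head on chromosome 8 and overlap by 22 bases, Col4a4 and Col4a3 start 71 bases apart on chromosome 1, and Col4a6 and Col4a5 start 1308 bases apart on chromosome X. Exons of 8 members overlap an exon on the opposite strand. The largest such overlap is 563 bases, between Col4a3 and C430014B12Rik, and the counting used by the authors is not stated to use strand.

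Reads were recovered by dividing each value by the smallest positive value of its library, called its step. Summed over the genes left after duplicate rows were dropped, they came to 21132490 to 44195300 a library, with a median of 36347580. The collagen members took 25772 to 74899 of these reads in a library. Hepatocyte markers had a mean log2(value + 1) of 17.33 to 19.24 over the libraries. Transcripts of skeletal muscle set 17 libraries apart, called muscle-rich here because the mean log2(value + 1) of 15 muscle genes was at least 8. It was 8.38 to 16.55 in these and 1.29 to 6.34 in the other 23. Acta1, the actin of skeletal muscle, had 2589 to 329300 normalized read counts in the muscle-rich libraries and 0 to 669 in the others. For Ckm, the muscle creatine kinase, the ranges were 939.7 to 192900 and 1.016 to 235.5. Of the muscle-rich libraries, 10 were from CR and 7 from AL mice, with 3 in d3 CR males, 2 in d3 AL males, 3 in d3 CR females, 2 in d3 AL females, 2 in WT CR males, 1 in WT AL males, 2 in WT CR females and 2 in WT AL females. Group means of Ghr itself were 11630 to 14140 normalized read counts in the d3 groups and 12080 to 17080 in the WT groups (log2 difference -0.20, limma adjusted p = 0.714), and a gene-level value does not check the exon 3 deletion. In bulk liver, fewer cells of a type and less RNA per cell cannot be told apart, which holds for every value below.

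What calorie restriction does to collagen transcripts was asked with CR set against AL, averaged over genotype and sex (20 livers a side). Of the 34 members, 13 were higher in CR and 0 lower (limma, adjusted p under 0.05). Over all genes tested, 45.7% were called, 23.2% higher and 22.6% lower. The members' share called was 38.2%, all of it higher. That lay below the 45.7% of all genes called in either direction and above the 23.2% called higher. The median log2 change of the members was 0.37, against 0.04 over all genes. Higher were 4 of 9 fibrillar members (Col27a1, Col3a1, Col24a1 and Col5a1), 2 of 8 network members (Col4a5 and Col8a1), 3 of 6 beaded filament members (Col6a1, Col6a2 and Col6a3), 2 of 5 fibril-associated members (Col16a1 and Col22a1) and 2 of 4 transmembrane or other members (Col23a1 and Col26a1). Neither multiplexin passed the test. Diet runs with the order of the title numbers, fully in d3 and partly in WT mice, as given below.

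**Figure D1:**
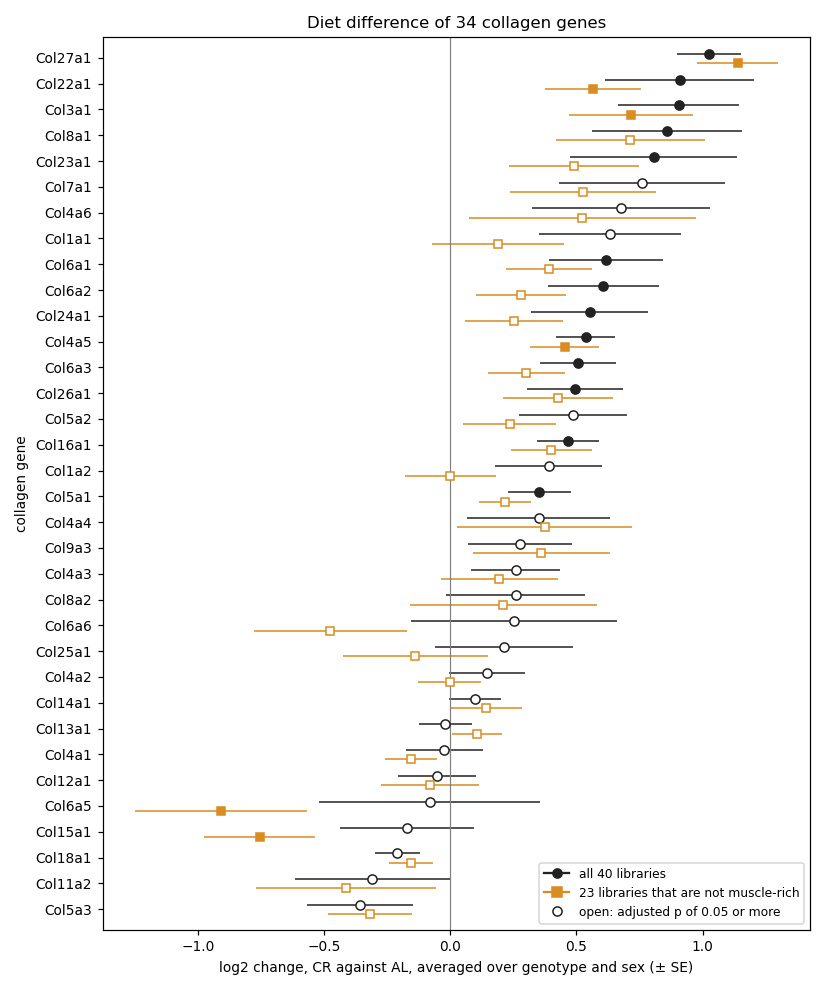
Log2 change between CR and AL livers for the 34 collagen genes (vertical axis), averaged over genotype and sex, with its SE (horizontal axis). Black points are fits to all 40 libraries, orange squares fits to the 23 that are not muscle-rich, and filled symbols passed an adjusted p of 0.05. Col27a1, Col22a1, Col3a1 and Col4a5 are filled in both fits, and Col15a1 and Col6a5 only, on the lower side, without the muscle-rich libraries.

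Col27a1 showed the largest change. It encodes a fibrillar collagen known mainly from cartilage. Col27a1 had 1504, 949.7, 1662, 1196 and 1416 normalized read counts in d3 CR males, against 1495, 1509, 980.4, 1413 and 795.4 in d3 AL males. These groups overlapped. In d3 females the values were 839.3, 1348, 901.5, 1548 and 522.7 on CR and 513.6, 404.2, 226.3, 411.9 and 367.9 on AL. Every d3 CR female was above every d3 AL female. In WT males they were 1605, 1937, 1608, 1552 and 1966 on CR and 759.4, 674.9, 1536, 962 and 964.4 on AL, again without overlap. In WT females they were 833.8, 873.2, 937.1, 1219 and 1434 on CR and 197.1, 440.2, 353.6, 302.1 and 329.7 on AL, the largest change of the 4 pairs. The averaged log2 change was 1.03 ± 0.13 (SE; limma adjusted p = 3.291e-08), a 2.036-fold difference. In the 23 livers that are not muscle-rich it was 1.14 ± 0.16 (adjusted p = 2.719e-05), and its slope on the muscle level was not called (-0.01, adjusted p = 0.511).

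**Figure D2:**
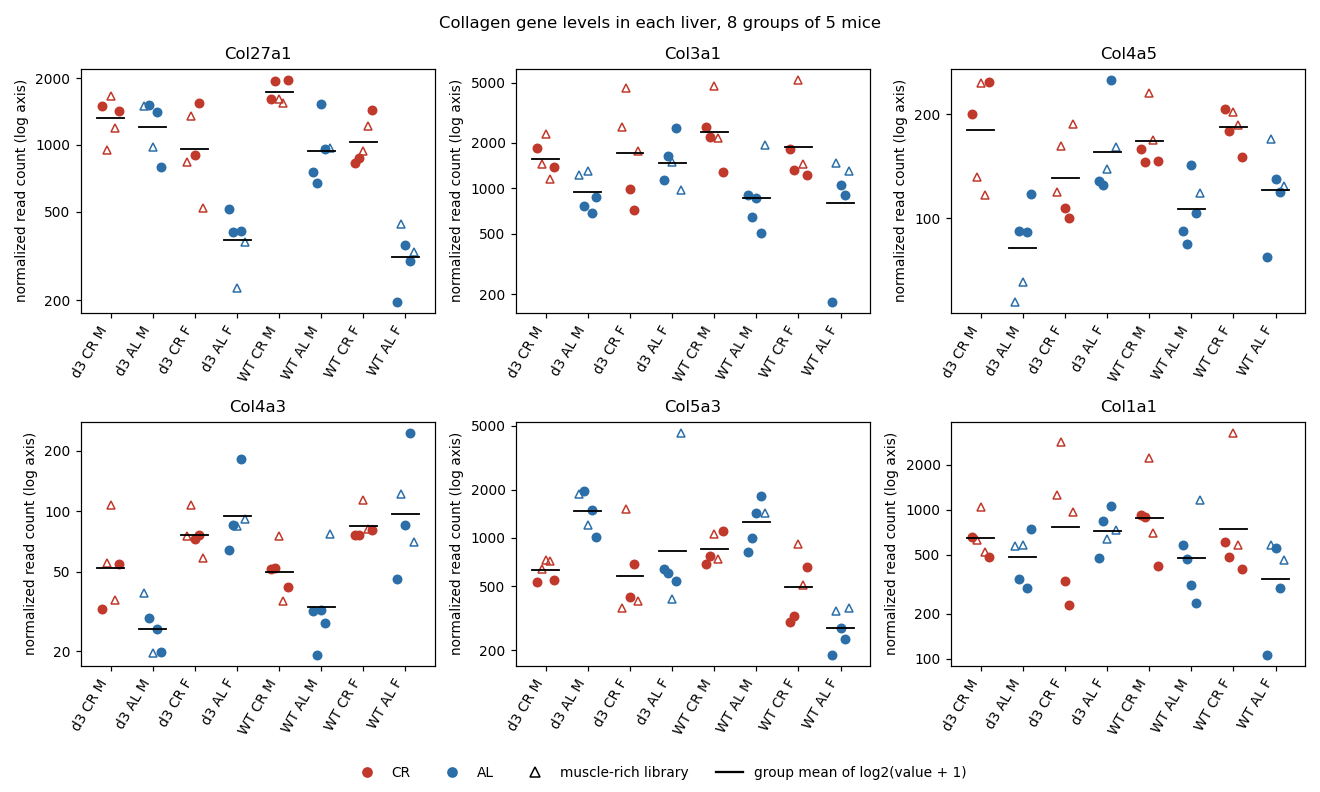
Normalized read counts (log axis) of 6 collagen genes in each of the 40 livers, by group, with CR in red and AL in blue. Open triangles are muscle-rich libraries and black bars the group mean on the log scale. Col27a1 was lowest in AL females of both genotypes, Col4a3 was lowest in AL males, and Col5a3 had 1 d3 AL female at 4518.

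Col3a1 encodes the chain of type III collagen, a fibrillar collagen of soft tissues. It had 2557, 2192, 4768, 2144 and 1286 normalized read counts in WT CR males, against 906.1, 643.8, 870.3, 509.8 and 1935 in WT AL males. The groups overlapped through 1 AL liver, WT AL male no. 5, which was muscle-rich. WT CR males no. 3, with 4768, and no. 4, with 2144, were muscle-rich too. Over all CR mice the lowest, median and highest values were 718.4, 1796 and 5245, against 178, 1018 and 2510 in AL mice. The averaged log2 change was 0.90 ± 0.24 (SE; limma adjusted p = 0.00221), and 0.71 ± 0.25 (adjusted p = 0.03106) without the muscle-rich libraries. Its highest value, in WT CR female no. 3, and its lowest, in WT AL female no. 1, stood apart from their groups. With any 1 library left out, the change stayed between 0.77 and 0.98.

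Col1a1 and Col1a2 encode the chains of type I collagen, the main fibre of scar tissue, and neither passed the test with limma. Col1a1 had a lowest, median and highest value of 227.5, 643 and 3290 normalized read counts in CR mice, against 105.9, 560 and 1164 in AL mice (log2 change 0.63 ± 0.28, adjusted p = 0.06496). For Col1a2 the values were 421.5, 1032 and 3464 in CR and 337.8, 907.4 and 1608 in AL mice (0.39 ± 0.21, adjusted p = 0.129). The medians of the diets were close, and single CR livers lay far above the others. edgeR on the recovered reads called both (adjusted p = 0.0173 and 0.04636). Col5a1 and Col5a2, chains of type V collagen that joins type I fibres, had log2 changes of 0.35 ± 0.12 (adjusted p = 0.01971) and 0.49 ± 0.21 (adjusted p = 0.06126). The call of Col5a1 was lost with muscle-rich livers set aside (0.22, adjusted p = 0.1181). Col5a1 had 383.5, 483.7 and 938.6 in CR mice, against 238.5, 417.8 and 975.1 in AL mice, and Col5a2 had 93.77, 160.2 and 550.4 against 41.94, 124.3 and 265.3 (lowest, median and highest).

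Col6a1, Col6a2 and Col6a3 encode the main chains of type VI collagen, which forms beaded filaments between cells and matrix, and all 3 were higher in CR. Col6a1 had a lowest, median and highest value of 332.9, 631.2 and 1888 normalized read counts in CR mice, against 192.7, 502.2 and 1649 in AL mice. Col6a2 had 174, 320.2 and 1372 in CR mice, against 98.13, 292 and 387.9 in AL mice. Col6a3 had 261.6, 382.4 and 1026 in CR mice, against 167.6, 315.9 and 525.2 in AL mice. The ranges of the diets overlapped in all 3 genes. Their log2 changes were 0.62 ± 0.23, 0.61 ± 0.22 and 0.51 ± 0.15 (SE; limma adjusted p = 0.0246, 0.0239 and 0.00591). With muscle-rich livers set aside the changes were 0.39, 0.28 and 0.30, and no call was left (adjusted p = 0.08304, 0.246 and 0.1369). All 3 followed the muscle level, with slopes of 0.10, 0.10 and 0.05 log2 units per unit of muscle level. The weaker members of this family, Col6a5 and Col6a6, were not called (log2 changes -0.08 and 0.25), and neither was Col7a1, the anchoring fibril collagen, at 0.76 ± 0.33 (adjusted p = 0.05664).

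Basement membrane members split. Col4a5, on the X chromosome, had 201.1, 131.5, 246.5, 116.3 and 249.1 normalized read counts in d3 CR males, against 57.11, 91.87, 65.06, 91 and 117.7 in d3 AL males, which overlapped by 1 library a side. It had 158.4, 145.1, 231, 168.2 and 146.9 in WT CR males, against 91.55, 83.92, 142.9, 103.5 and 117.9 in WT AL males. The WT males did not overlap. Its averaged log2 change was 0.54 ± 0.12 (SE; limma adjusted p = 0.0002815), and 0.45 (adjusted p = 0.01483) without the muscle-rich libraries. Col4a1 and Col4a2, the main chains of basement membranes, differed by -0.02 ± 0.15 and 0.15 ± 0.15 (log2; adjusted p = 0.9105 and 0.4334). Col4a1 had a lowest, median and highest value of 955.5, 1817 and 3784 in CR mice, against 1131, 1901 and 4003 in AL mice. For Col4a2 they were 771.1, 1555 and 2989 in CR mice and 757.3, 1335 and 2541 in AL mice. The 95% intervals of the differences were -0.33 to 0.28 and -0.16 to 0.45. Col8a1, a short chain of network collagen, had 15.76, 41.65 and 169.4 in CR mice, against 6.079, 25.14 and 69.6 in AL mice (0.86 ± 0.30, adjusted p = 0.0178, and 0.71, adjusted p = 0.06971, without the muscle-rich libraries).

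Among the fibril-associated members, which sit on the surface of fibres, Col16a1 had a lowest, median and highest value of 108.6, 166.7 and 262.6 normalized read counts in CR mice, against 63.91, 130.8 and 197.8 in AL mice (log2 change 0.47 ± 0.12, limma adjusted p = 0.001976). Among livers that are not muscle-rich it was 0.40 (adjusted p = 0.06076). Col22a1, known from junctions of muscle and tendon, had 14.71, 34.12 and 710.7 in CR mice, against 10.89, 17.12 and 41.81 in AL mice (0.91 ± 0.29, adjusted p = 0.01159). Its value of 710.7 was in d3 CR female no. 2, which also had the highest muscle level, 16.55. With all muscle-rich livers set aside, the change of Col22a1 was 0.57 (adjusted p = 0.02822). Col14a1 had 489.6, 687.4 and 1162 in CR mice, against 385.2, 703.3 and 1065 in AL mice, and the difference was 0.10 ± 0.10 (adjusted p = 0.4393).

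The least steady calls were those of low members of the fibrillar group and of the transmembrane or other group. Col26a1 had a lowest, median and highest value of 12.23, 36.04 and 109.1 normalized read counts in CR mice, against 12.02, 23.78 and 39.47 in AL mice (0.49 ± 0.19, limma adjusted p = 0.03371). Col24a1 had 6.46, 17.25 and 138.1 in CR mice, against 4.46, 14.41 and 23.16 in AL mice (0.55 ± 0.23, adjusted p = 0.04895). Col23a1 had 5.406, 16.35 and 102.6 in CR mice, against 2.605, 10.33 and 41.27 in AL mice (0.81 ± 0.33, adjusted p = 0.04493). Diets overlapped widely in all 3. None of these calls was left with muscle-rich livers set aside, where the changes were 0.43 for Col26a1, 0.25 for Col24a1 and 0.49 for Col23a1 (adjusted p = 0.1437, 0.3447 and 0.1522). Col24a1 and Col23a1 were also not called with the muscle level in the model (0.52 each, adjusted p = 0.06678 and 0.06327), with a pseudocount of 10 (0.38 and 0.50, adjusted p = 0.05507 and 0.06513) or with every gene kept (adjusted p = 0.05657 and 0.05163). The call of Col26a1 was lost (log2 change down to 0.41, adjusted p up to 0.06031) without d3 CR male no. 3 or 5, d3 AL male no. 4, d3 CR female no. 2, d3 AL female no. 3, WT CR male no. 2, WT CR female no. 3 or WT AL female no. 3. Col24a1 was called in 15 of 40 fits with 1 library left out (log2 change 0.41 to 0.62, adjusted p up to 0.08606), and lost without d3 CR male no. 1, 2, 3 or 5, d3 AL male no. 1, 4 or 5, d3 CR female no. 2 or 4, d3 AL female no. 3, 4 or 5, WT CR male no. 1, 2, 3 or 4, WT AL male no. 2, 4 or 5, WT CR female no. 2, 3 or 4, or WT AL female no. 1, 3 or 5. Col23a1 was called in 17 of 40 fits with 1 library left out (log2 change 0.66 to 0.93, adjusted p up to 0.08118), and lost without d3 CR male no. 2, 3 or 4, d3 AL male no. 2, 4 or 5, d3 CR female no. 2 or 5, d3 AL female no. 1, 2 or 4, WT CR male no. 1, 2, 3 or 5, WT AL male no. 1, 2 or 4, WT CR female no. 3 or 4, or WT AL female no. 1, 2 or 3.

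Col15a1 and Col18a1 encode multiplexins of vessel and epithelial basement membranes. Col18a1 had a lowest, median and highest value of 19680, 36040 and 45830 normalized read counts in CR mice, against 21930, 40670 and 52050 in AL mice. The difference was -0.21 ± 0.09 (log2, SE; limma adjusted p = 0.05679), and edgeR called it (adjusted p = 0.04642). Col15a1 had 65.27, 192.4 and 1109 in CR mice, against 146.2, 252.6 and 397.3 in AL mice. Both the lowest and the highest livers were on CR, and the difference was -0.17 ± 0.27 (adjusted p = 0.615). The highest values, 1109 in WT CR female no. 3, 906.1 in d3 CR female no. 2 and 574.6 in WT CR male no. 3, were in the libraries with the 3 highest muscle levels. In the libraries that are not muscle-rich, Col15a1 had 65.27, 135.5 and 300.6 in 5 CR males, against 188.1, 255.9 and 349.9 in 7 AL males. There it was lower in CR, with a log2 change of -0.75 ± 0.22 (limma adjusted p = 0.01261), and so was Col6a5 at -0.91 ± 0.34 (adjusted p = 0.04741). Col6a5 was near the floor there, with a lowest, median and highest value of 1.051, 2.407 and 5.147 in CR females. In AL females it had 2.222, 11.43 and 23.16. In males the values were 6.487, 11.44 and 17.26 on CR, and 1.311, 16.49 and 34.11 on AL. In those libraries 6 members were called, 4 higher and 2 lower, against 33.6% of all genes called there.

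The pairs of groups called fewer members than the average. In d3 males 2 members were higher in CR (Col4a5, log2 change 1.13 ± 0.23, and Col4a3, 0.98 ± 0.35) and 1 lower (Col5a3, -1.22 ± 0.42), while 19.5% of all genes were called, 9% higher and 10.5% lower. In d3 females 1 member was higher, Col27a1 at 1.37 ± 0.25, with 17.9% of all genes called (8.33% higher and 9.55% lower). In WT males 6 were higher and 0 lower, with 21.5% of all genes called (10.1% higher and 11.4% lower). The largest of these was Col3a1 at 1.44 ± 0.48, followed by Col27a1 at 0.88 ± 0.25, Col16a1 at 0.82 ± 0.24, Col14a1 at 0.75 ± 0.20, Col5a1 at 0.69 ± 0.25 and Col4a5 at 0.65 ± 0.23. In WT females 2 were higher, Col27a1 at 1.72 ± 0.25 and Col26a1 at 1.30 ± 0.38, with 11.7% of all genes called (4.56% higher and 7.11% lower). With muscle-rich livers set aside, d3 females had 4 members called by limma, against 7.56% of all genes. Of these, 1 was higher (Col27a1, 1.42, adjusted p = 0.01813). The 3 lower were Col1a2 (-1.28, adjusted p = 0.04837), Col4a1 (-0.80, adjusted p = 0.0328) and Col6a5 (-2.83, adjusted p = 0.02528). That pair then rested on d3 CR females no. 3 and 4 and d3 AL females no. 1, 2 and 4. In the same fit the WT male calls of Col14a1 (0.71, adjusted p = 0.06093) and Col4a5 (0.53, adjusted p = 0.1377) were lost. So were the d3 male call of Col4a3 (0.74, adjusted p = 0.4052) and the WT female call of Col26a1 (0.86, adjusted p = 0.2838). The d3 male pair then rested on CR males no. 1 and 5 and AL males no. 2, 4 and 5. In WT males Col5a1 was not called with edgeR (0.68, adjusted p = 0.0565) or with every gene kept (adjusted p = 0.05305), nor was Col4a5 with every gene kept (adjusted p = 0.05198). In d3 males edgeR did not call Col5a3 (-1.26, adjusted p = 0.0542), and Col4a3 was not called with the muscle level in the model (0.93, adjusted p = 0.05168). The d3 male call of Col4a3 was also lost with a pseudocount of 10, with every gene kept and with the compared groups fitted alone. It held in 2 of 7 alternatives. Whether the diet effect differs between genotypes was tested as an interaction, and 0 members and 0% of all genes passed (limma). At an unadjusted p under 0.05 there were 4 members, against 690 of the 13776 genes tested, and edgeR called 0 members and 0 genes. In the sample titles, all AL numbers of d3 mice come before all CR numbers within each sex, so diet and number order cannot be told apart in d3 mice. In WT mice AL numbers also tend to come first, with some overlap between the diets in each sex. The averaged diet contrast therefore carries part of the same limit.

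Single libraries decided several of these pair calls. The count in d3 males fell to 1 without d3 CR male no. 2 or 5 or d3 AL male no. 2 or 4. Of the 10 fits with 1 library left out, Col4a5 was called in 10 and Col4a3 and Col5a3 in 3 each, with log2 changes of 0.72 to 1.14 for Col4a3 (adjusted p up to 0.1744) and -1.35 to -1.11 for Col5a3 (adjusted p up to 0.0848). Col4a3 was lost without d3 CR male no. 2, 3 or 5 or d3 AL male no. 2, 3, 4 or 5, and Col5a3 without d3 CR male no. 1, 2, 4 or 5 or d3 AL male no. 1, 2 or 4. The count in d3 females was 2 without d3 CR female no. 3. In WT males it was 3 without WT CR male no. 1 or 3 or WT AL male no. 2 or 4, which were also the libraries that ended the call of Col3a1 (1.19 to 1.73, adjusted p up to 0.09037). Col5a1 was called in 3 of 10 such fits, lost without WT CR male no. 1, 2, 3 or 4 or WT AL male no. 2, 3 or 4 (0.55 to 0.78, adjusted p up to 0.1346). Col4a5 in WT males was called in 4 of 10, lost without WT CR male no. 1, 3 or 4 or WT AL male no. 1, 2 or 4 (0.54 to 0.76, adjusted p up to 0.1213), and Col16a1 was lost without WT AL male no. 3 (adjusted p = 0.06908). In WT females the count was 1 without WT CR female no. 3 or WT AL female no. 2 or 3, each of which ended the call of Col26a1 (log2 change down to 1.09, adjusted p up to 0.08337). Col27a1 stayed called in every such fit of the averaged contrast and of the d3 female, WT male and WT female pairs.

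**Figure D3:**
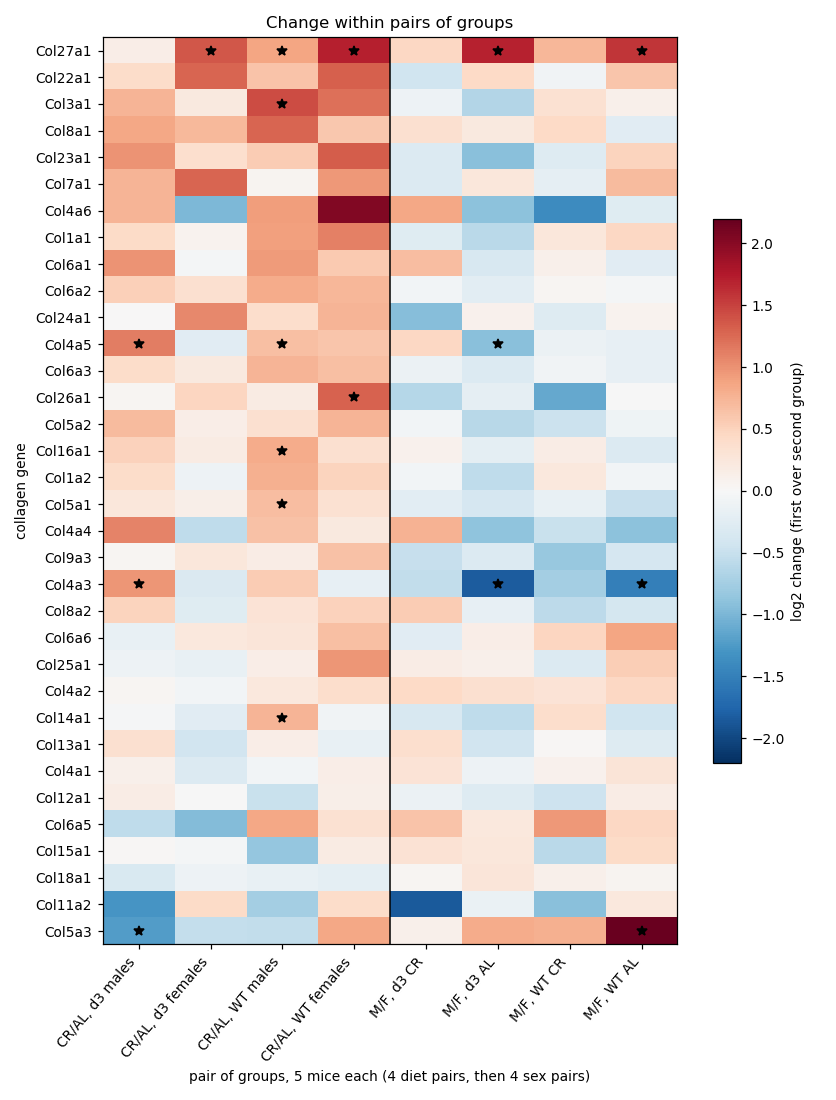
Log2 change of the 34 collagen genes (rows) in 4 diet pairs (CR over AL) and 4 sex pairs (males over females), with 5 mice in each group. Red is higher in the first group, blue lower, and stars mark an adjusted p under 0.05. The stars of the sex pairs all stand in the AL columns, on Col27a1, Col4a3, Col4a5 and Col5a3.

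Between males and females, averaged over genotype and diet, 2 members were higher in males (Col27a1 and Col5a3) and 1 lower (Col4a3), with 23.9% of all genes called by limma (13.6% higher and 10.3% lower). The members' median log2 change was -0.08, against -0.02 over all genes. Col27a1 was higher in males by 1.11 ± 0.13 (log2, SE; limma adjusted p = 2.013e-08), with a lowest, median and highest value of 674.9, 1455 and 1966 normalized read counts in males, against 197.1, 518.1 and 1548 in females. The sexes were apart on AL, where males had 674.9 to 1536 and females 197.1 to 513.6, and overlapped on CR, where males had 949.7 to 1966 and females 522.7 to 1548, although WT CR males and WT CR females did not overlap. On AL its log2 change was 1.69 ± 0.25 in d3 and 1.58 ± 0.25 in WT mice (adjusted p = 1.38e-05 and 3.862e-05). On CR the changes were 0.46 and 0.74 ± 0.25 (adjusted p = 0.2715 and 0.09003).

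The difference between those sex effects was itself tested as the sex by diet interaction, averaged over genotype, and Col27a1 was the 1 member called, where 3.07% of all genes were called. Its interaction was -1.04 ± 0.25 (log2, SE; limma adjusted p = 0.01488), so that the CR effect was smaller in males than in females. With edgeR it was -1.10 (adjusted p = 0.007633), and -1.02 once muscle-rich livers were set aside, with 5 CR males, 7 AL males, 5 CR females and 6 AL females left (adjusted p = 0.1811). The next members were Col4a5 at 0.71 ± 0.23 (adjusted p = 0.09327) and Col4a3 at 1.02 ± 0.35 (adjusted p = 0.1114). The count rose to 2 without d3 AL female no. 5 or WT AL male no. 5 and to 4 without WT AL female no. 1.

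Col4a3, a type IV chain of the kidney's filtration membrane, was lower in males by 1.16 on the log2 scale (-1.16 ± 0.18, SE; limma adjusted p = 5.565e-06). In d3 AL mice it had 39.13, 29.45, 19.67, 25.82 and 19.8 normalized read counts in males, against 64.32, 85.46, 84.56, 182.8 and 91.42 in females, with no overlap. In WT AL mice it had 31.69, 19.18, 31.96, 27.52 and 76.64 in males, against 46.03, 121.3, 85.15, 246.6 and 70.57 in females. There the sexes overlapped through WT AL male no. 5, a library that also had an exocrine pancreas level of 12.70. The call in WT AL mice (-1.50, limma adjusted p = 0.005359) was lost with the compared groups fitted alone. Among livers that are not muscle-rich, AL males had 19.18 to 31.96 and AL females 46.03 to 246.6, and CR males 32.43 to 54.31 against 72.5 to 81.05 in CR females. The averaged change in those libraries was -1.32 ± 0.23 (adjusted p = 0.0005009). Col4a4, the neighbour that starts 71 bases away and pairs with Col4a3 in the same protein, differed by -0.38 ± 0.28 (adjusted p = 0.3463). The reads of C430014B12Rik, which overlaps Col4a3 on the other strand, were not analysed here.

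Col5a3, a minor type V chain, was higher in males by 0.97 ± 0.21 (log2, SE; limma adjusted p = 0.0006656). In WT AL mice it had 821.6, 997.4, 1421, 1819 and 1427 normalized read counts in males, against 186.7, 348.6, 275.5, 235.5 and 367.4 in females, a log2 change of 2.18 ± 0.42 (adjusted p = 0.0005397). The WT AL sexes were fully apart. In d3 AL mice it had 1879, 1967, 1204, 1494 and 1010 in males, against 642.2, 603, 413.4, 541.5 and 4518 in females (0.82 ± 0.42, adjusted p = 0.2729). The last of these females, no. 5, was above every male, had a muscle level of 8.97 and an adipocyte level of 7.68, and the other 4 were below every male. With muscle-rich livers set aside, the change in d3 AL mice was 1.27 ± 0.32 (limma adjusted p = 0.02328). That left d3 AL males no. 2, 4 and 5 and d3 AL females no. 1, 2 and 4. On CR the log2 changes were 0.11 in d3 and 0.78 in WT mice (adjusted p = 0.9033 and 0.3051).

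Within d3 AL mice Col4a5 was also lower in males, at -0.91 ± 0.23 (log2, SE; limma adjusted p = 0.01215). The call was lost without d3 AL female no. 4 (-0.74, adjusted p = 0.06033) and with muscle-rich livers set aside (-0.67, adjusted p = 0.1402). It was also lost with the compared groups fitted alone. The d3 AL pair called 1 member higher and 2 lower, against 6.16% of all genes (3.44% higher and 2.71% lower). The WT AL pair called 2 higher and 1 lower, against 6.48% of all genes (3.42% higher and 3.06% lower). The d3 CR and WT CR pairs called 0 members, against 8.81% and 4.57% of all genes. At an unadjusted p under 0.05 they held 2 and 4 members, against 3291 and 2614 of the 13776 genes tested. edgeR called 1 and 0 members there, against 1326 and 571 of all genes. There was 1 member called in d3 CR mice without d3 CR male no. 1 or 3 or d3 CR female no. 5, and 1 in WT CR mice without WT CR male no. 2. The averaged sex count became 6 without d3 CR male no. 1 and 5 without d3 CR male no. 3, d3 AL male no. 5, d3 AL female no. 3, WT CR male no. 2 or 3, or WT AL female no. 1. With muscle-rich livers set aside it was 7, the additions being Col4a2 (0.49), Col22a1 (0.78) and Col6a5 (1.15) on the higher side and Col13a1 (-0.29) on the lower side, against 22.9% of all genes. Col6a5 was near the floor in the CR females there (1.051 to 5.147 normalized read counts).

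No collagen gene was called between d3 and WT. Averaged over sex and diet, 0 members were called with limma and 0 with edgeR, and 0% of all genes passed. At an unadjusted p under 0.05 there was 1 member, against 967 of the 13776 genes tested. The member was Col6a1, at 0.49 ± 0.23 (log2, SE; limma adjusted p = 0.7039), with a 95% interval of 0.03 to 0.95. The interval of Col27a1 ran from -0.23 to 0.28, that of Col3a1 from -0.42 to 0.56 and that of Col1a1 from -0.40 to 0.75. Within the 4 combinations of sex and diet, 0 members were called, against 0.138% of all genes in CR males, 0.0436% in AL males and 0% in females on either diet. The smallest unadjusted member p was that of Col5a3 in AL females, at 1.59 ± 0.42 (limma adjusted p = 0.7753). Col14a1 in CR males came next, at -0.73 ± 0.20 (limma adjusted p = 0.2503). The genotype by sex interaction called 0 members and 0% of all genes. It held 2 members at an unadjusted p under 0.05, against 1144 of all genes tested, and edgeR called 0 members and 0 genes.

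The d3 AL females had 642.2, 603, 413.4, 541.5 and 4518 normalized read counts of Col5a3, against 186.7, 348.6, 275.5, 235.5 and 367.4 in WT AL females. The d3 values all exceeded the WT values, with no. 5 at 4518 far above the other d3 AL females (413.4 to 642.2). The deposited change given next includes that liver and was not refitted without it. In the authors' deposited table Col5a3 had a log2 change of 2.19 in AL females with an adjusted p of 0.01836, where 0.00584% of all genes with an adjusted p were called, and no other member was called in its 4 comparisons. The authors' deposited table gave no adjusted p for 1 of the 34 members in CR males, 8 in AL males, 1 in CR females and 1 in AL females. Col14a1 had 687.6, 489.6, 562.6, 506.6 and 535.7 in d3 CR males, against 1010, 908.7, 692, 1162 and 869.5 in WT CR males. Those groups did not overlap either, and the highest d3 value lay just under the lowest WT value. The authors' deposited table gave Col14a1 a log2 change of -0.70 in CR males with an adjusted p of 0.2173. In CR males all WT title numbers come before all d3 numbers, so genotype and number order cannot be told apart there.

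**Figure D4:**
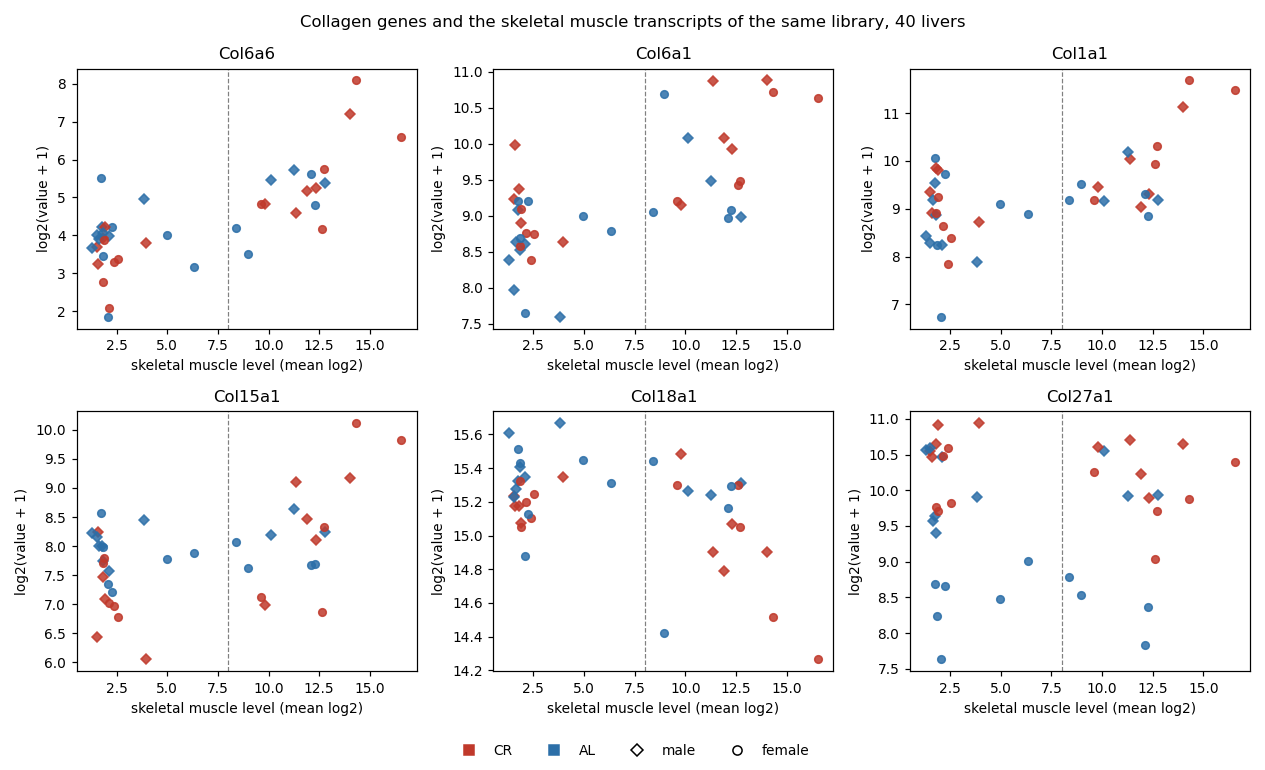
Level of 6 collagen genes, as log2(value + 1), against the skeletal muscle level of the same library, the mean log2(value + 1) of 15 muscle genes. Red is CR, blue AL, diamonds are males and circles females, and the dashed line at 8 divides muscle-rich libraries from the others. Col6a6, Col6a1 and Col1a1 are high in the libraries with the most muscle transcripts, Col15a1 is high in the 3 with the most, Col18a1 is low there, and Col27a1 has medians of 964.4 right and 901.5 left of the line, in normalized read counts.

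How far collagen levels go with muscle transcripts was measured as a slope in the model with the 8 groups, in log2 units per unit of muscle level. With limma, 21 members had a positive and 2 a negative slope past the threshold, against 17.9% and 15% of all genes (32.9% together). With edgeR the counts were 22 positive and 0 negative, and with the muscle level taken from Acta1 and Ckm alone 19 positive and 0 negative. For these alternatives the shares of all genes were not computed. Of the 33 members whose mean reached 10 outside the muscle-rich libraries, 20 had a positive slope and 2 a negative one. Positive were all 6 beaded filament and anchoring members, 6 of 8 network members, 5 of 9 fibrillar members, 2 of 4 transmembrane or other members, 1 of 5 fibril-associated members and 1 multiplexin. The steepest were Col6a6 at 0.20 ± 0.03 and Col6a5 at 0.19 ± 0.03 (SE; adjusted p = 5.165e-07 and 6.129e-05). Col23a1, which passed the minimum only through the muscle-rich libraries, had a slope of 0.15. Col6a6 had a median of 37.28 normalized read counts in muscle-rich libraries and 13.73 in the others, Col1a1 700.2 and 474, and Col6a1 718 and 430.8. Negative were Col18a1 at -0.02 ± 0.01 (medians 36660 and 39690) and Col13a1 at -0.03 ± 0.01 (medians 198.4 and 217.1), and neither was called with edgeR (adjusted p = 0.05628 and 0.05963) or with Acta1 and Ckm alone (adjusted p = 0.08084 and 0.0563). The call of Col18a1 held in 26 of 40 fits with 1 library left out (adjusted p up to 0.1405), and was lost without d3 CR male no. 1, 3, 4 or 5, d3 AL male no. 1 or 2, d3 CR female no. 2 or 3, d3 AL female no. 4, WT CR male no. 3 or 5, WT AL male no. 5, or WT CR female no. 2 or 3. The call of Col13a1 held in 24 of 40 fits with 1 library left out (adjusted p up to 0.1945), and was lost without d3 CR male no. 1, d3 AL male no. 5, d3 CR female no. 2, 3, 4 or 5, d3 AL female no. 2, WT CR male no. 3, WT AL male no. 2, WT CR female no. 1, 2, 3 or 5, or WT AL female no. 1, 2 or 5. Not called were Col27a1, Col4a5, Col4a3, Col5a3, Col16a1, Col14a1, Col24a1, Col26a1, Col12a1, Col11a2 and Col9a3.

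Other markers moved with the muscle transcripts. All 6 adipocyte genes, all 4 mesothelium genes tested and 7 of 8 portal fibroblast genes had positive slopes past the threshold. The mean adipocyte level (log2) was 3.55 to 10.76 in muscle-rich and 3.01 to 8.16 in the other libraries, and that of portal fibroblasts 5.27 to 8.41 and 4.62 to 6.32. For hepatic stellate cells, 4 of 12 genes had a positive and 3 a negative slope, and the level was 8.98 to 9.59 in muscle-rich and 8.43 to 9.35 in the other libraries. By diet, the muscle level was 1.52 to 16.55 with a median of 6.77 in CR mice and 1.29 to 12.77 with a median of 3.04 in AL mice, and 1 of 15 muscle genes was called, Actn3, higher in CR. Of all genes, 23.2% were called higher and 22.6% lower in CR (limma), the shares to set beside each list count by diet. The portal fibroblast list had 2 of 8 genes higher in CR. The stellate list had 2 higher (Lrat and Cygb) and 1 lower (Hgf) of 12, and the Kupffer list 4 of 6 lower. Smooth muscle had 2 of 3 genes higher, Tagln at 0.82 (limma adjusted p = 0.0001349) and Smtn at 0.94 (adjusted p = 5.02e-05). Cholangiocytes had 3 of 5 higher (Krt7, Epcam and Spp1) and 1 lower (Sox9), endothelial cells 3 of 9 higher (Kdr, Tek and Vwf) and 1 lower (Lyve1), and hepatocytes 2 of 4 lower (Apoa1 and Serpina3k). The part of these cells in the diet differences was not tested beyond the fits given here with the muscle level and without the muscle-rich libraries. With the muscle level in the model, 11 members were higher in CR and 0 lower, against 24.1% and 22.4% of all genes in that fit. Leaving out d3 CR female no. 2 left 15 called slopes, and leaving out WT CR female no. 3 left 14, all positive. Within the 23 libraries that are not muscle-rich, whose muscle levels span 1.29 to 6.34, 0 member slopes were called. The share of all genes called for that slope was not computed, so the count is not a result about the collagens.

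Genes that fold, cut and cross-link collagen were read beside the members, from lists of their roles. Of 19 genes for folding and hydroxylation, 3 were higher and 5 lower in CR than in AL (limma), against 23.2% and 22.6% of all genes. P3h1, a prolyl hydroxylase of collagen chains, had 393.1 to 522.2 normalized read counts with a median of 466.4 in CR mice, against 595.9 to 903.2 with a median of 699.7 in AL mice. All 20 CR livers were below all 20 AL livers, with a log2 change of -0.60 ± 0.05 (SE; adjusted p = 2.087e-12). The collagen chaperone Serpinh1 was higher in CR (0.66 ± 0.17, adjusted p = 0.002141), as was the folding enzyme Fkbp10 (0.85 ± 0.23, adjusted p = 0.002777), while Pdia3, a disulfide isomerase, was lower (-0.48 ± 0.10, adjusted p = 0.0002196). Ppib and P4ha1 were not called, at 0.03 and -0.26.

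Of 12 genes for processing and cross-linking, 3 were higher and 3 lower in CR. Loxl4, a lysyl oxidase that cross-links collagen, had 18.46 to 55.27 normalized read counts with a median of 34.4 in CR mice, against 62.71 to 926.3 with a median of 219.4 in AL mice. No CR liver reached the lowest AL liver, and the log2 change was -2.69 ± 0.18 (SE; limma adjusted p = 1.373e-14). It was also lower in males than in females by 0.97 (-0.97 ± 0.18, adjusted p = 8.559e-05). The transglutaminase gene Tgm2 was lower in CR (-0.59 ± 0.07, adjusted p = 9.9e-09), whereas Adamts14, a procollagen protease, and Pcolce, an enhancer of such cutting, were higher (0.82 ± 0.12 and 0.74 ± 0.28, adjusted p = 4.548e-07 and 0.02821). With the muscle level in the model Pcolce was not called (0.57, adjusted p = 0.05211), while with muscle-rich livers set aside it was (0.78, adjusted p = 0.00471). Loxl1 and Loxl3 were not called, at 0.22 and -0.02.

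Of 13 genes for collagen breakdown and its inhibitors, 5 were higher and 2 lower in CR. Mmp14, a membrane-bound collagenase, had 844.7 to 1667 normalized read counts in CR mice, against 1117 to 2549 in AL mice (-0.53 ± 0.08, limma adjusted p = 1.858e-06). Mmp19 was lower too (-0.48 ± 0.10), and Mmp12, a macrophage elastase, and the inhibitor Timp3 were higher (0.46 ± 0.13 and 0.74 ± 0.20). Of 6 collagen receptors, Ddr1 was higher (0.74 ± 0.23), Itga10 and Itgb1 were lower (-0.48 ± 0.19 and -0.12 ± 0.04), and Ddr2 and Lair1 were not called at 0.19 and 0.00. Of 25 other matrix genes 6 were higher and 4 lower, among them Fbln2 (0.85 ± 0.34), the perlecan gene Hspg2 (0.66 ± 0.17) and the laminin gene Lama5 (0.60 ± 0.16) on the higher side, with Nid1 and Lamb2 not called at 0.31 and 0.53. Lama3, a laminin chain, was lower in CR (-0.44 ± 0.18, adjusted p = 0.04403) and higher in males than in females (2.15 ± 0.18, adjusted p = 1.595e-11). Of 17 genes of TGF-beta and fibrogenic signalling 6 were higher, among them Tgfb2 (0.91 ± 0.29) and the co-receptor gene Tgfbr3 (0.62 ± 0.13), and 3 lower, among them the growth factor gene Pdgfc (-1.19 ± 0.13), with Smad7 and Smad3 not called at 0.19 and 0.07. Between genotypes, 0 genes of these 6 lists were called.

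These diet calls were refitted with the muscle level in the model and with muscle-rich livers set aside, a choice made after seeing the data. With the muscle level, 3 folding genes were higher and 4 lower, 1 processing gene higher and 3 lower, 6 breakdown genes higher and 2 lower, 1 receptor higher and 1 lower, 5 other matrix genes higher and 4 lower, and 4 signalling genes higher and 3 lower. Of all genes, 24.1% were higher and 22.4% lower in that fit. With muscle-rich livers set aside, the counts were 4 and 3 for folding, 2 and 3 for processing, 3 and 2 for breakdown, 1 and 0 for receptors, 4 and 1 for other matrix genes and 4 and 2 for signalling. There the share of all genes called in either direction was 33.6%, against 45.7% in the fit to all 40 libraries, so counts fell for genes in general. Fbln2 dropped to 0.50 with the muscle level and 0.49 with muscle-rich livers set aside (adjusted p = 0.01604 and 0.04806), and its slope on the muscle level was 0.18 (adjusted p = 2.154e-10). Tgfb2 was 0.66 and 0.50 in those fits (adjusted p = 0.006004 and 0.04701). Itga10 was called in neither (-0.42 and -0.46, adjusted p = 0.07055 and 0.2154), and Itgb1 was lost with muscle-rich livers set aside (-0.10, adjusted p = 0.1658).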

How the data were processed

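Liver RNA-seq of 40 mice in 8 groups of 5 was used. The table of normalized expression holds, per the file headers and its values, a signal per gene that the authors made from read counts scaled by library, and 100% of its values were whole multiples of a library's step within 0.01. In 2 libraries that step was near 1. The second table holds the authors' deposited log2 fold changes and adjusted p-values for d3 against WT within each sex and diet. FastQC, MultiQC, Trimmomatic, kallisto, DESeq2 and GRCm38 are named in the submitters' processing notes, without versions. The labels' protocols give total RNA and a KAPA Hyperprep library kit. How multi-mapping reads and strand were handled is not given in the sources used here.

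After 115 duplicate rows of 17839 were dropped, the 13776 of 17724 genes whose mean reached 10 entered the fit. limma 3.58.1 in R 4.3.3 was fitted to log2(value + 1) with the 8 group means in 1 model, which shares the spread over all groups, and an intensity trend. P-values were adjusted by Benjamini-Hochberg over all genes tested, and called under 0.05. Changes are differences of log2(value + 1), so those of low genes are understated. There were 19 tests, namely 3 averaged contrasts, 12 pairs of groups, 3 interactions and the slope on the muscle level. edgeR 4.0.16 (quasi-likelihood test, TMM) was run on the recovered reads as an alternative. The fits were first tested on simulated data. Other alternatives were the fit with every gene kept, a pseudocount of 10, extra scaling, the compared groups fitted alone, the muscle level as covariate, muscle-rich libraries left out, and each library left out. For the other gene lists, the fits with the muscle level and with muscle-rich libraries left out were added after seeing the data.

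Every collagen member was to be accounted for. Levels are given for a set of 13 well-known members and for any other member called in an averaged contrast, up to 5 called members per direction in each pair of groups, every called member of an interaction, and in each other list up to 4 called genes with the largest change and 2 uncalled genes with the highest mean; 1 gene that this rule names is not reported here. The members and lists were chosen with earlier results of these data known. Replicate numbers follow accession order and pair nothing, and each library is a separate mouse. Columns that could not be mapped to a sample numbered 0. Promoter sequences are from RefSeq, GRCm38.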

Additional observations from a re-analysis of the deposited data

Results flagged for a closer look

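Of 272 combinations of a collagen gene and a group, 24 held a liver far from the other 4 of its group, where chance flags about 1 in 20, or 13.6. They came from 7 libraries, and 19 were in muscle-rich ones. Causes were not tested.

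WT CR female no. 3, with a muscle level of 14.31, held 11 of them, all high. It had 3290 normalized read counts of Col1a1 (others 399.6 to 608.2), 3464 of Col1a2 (650.5 to 852.6) and 5245 of Col3a1 (1232 to 1823). It had 1689 of Col6a1 (383.8 to 587.2), 1372 of Col6a2 (227.9 to 324.3) and 964.5 of Col6a3 (325.8 to 439.5). It also had 1109 of Col15a1, 234.8 of Col16a1, 169.4 of Col8a1, 137.1 of Col22a1 and 113.2 of Col4a3.

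WT AL female no. 1, which is not muscle-rich, was low in 4 genes. It had 178.0 of Col3a1 (others 908.6 to 1473), 200.6 of Col6a1 (412.1 to 543.3), 167.6 of Col6a3 (317.1 to 404.9) and 30100 of Col18a1 (40090 to 44760).

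d3 AL female no. 5 was high in Col5a3 with 4518 (others 413.4 to 642.2), in Col6a1 with 1649 (442.3 to 590.6) and in Col4a2 with 2448 (1074 to 1335). d3 CR female no. 2, with the highest muscle level, was high in Col22a1 with 710.7 (14.71 to 40.39) and low in Col18a1 with 19680 (33920 to 40400). WT CR male no. 3 was high in Col5a2 with 427.5 (93.77 to 132.8) and in Col6a5 with 173.2 (8.154 to 17.26). d3 CR male no. 3 was high in Col5a1 with 698.8 (395 to 454.3), and d3 AL male no. 2 in Col18a1 with 49890 (39280 to 41640).

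The effect of CR on Col27a1 differed between males and females, with an interaction of -1.0361 (log2; limma adjusted p = 0.01488).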

How the results depend on the processing

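No paired analysis was possible because replicate numbers follow accession order and pair no mice. Of 58 results on single collagen genes, 17 held in all alternatives run on them. Extra scaling ended 0 of these calls and moved the median of all genes by at most 0.0053 (log2), a pseudocount of 10 ended 3, no filter on low values 5, edgeR 4, the compared groups alone 3, the muscle covariate 3 and Acta1 with Ckm alone 4. Leaving out the muscle-rich libraries, which leaves 23, ended 16 and turned the sign of 22 more, none called there, so that 20 of the 58 calls were left.

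Without the muscle-rich libraries the counts of collagen genes called were 6 for CR against AL averaged, 4 in d3 females and 1 in WT females, 7 for males against females averaged and 2 in d3 CR mice, 0 for the sex by diet interaction and 0 for the muscle slope. Of all genes, 33.6%, 7.56%, 4.04%, 22.9%, 7.12% and 0.951% were called in these, in that order, and for the slope the share was not computed. In each d3 CR group, 3 of the 5 livers were left out of that fit. All 22 reversals were muscle slopes in those libraries, whose muscle levels span a narrower range, and none was called there: Col6a1 -0.0551, Col18a1 0.0481, Col1a1 -0.1136, Col6a2 -0.0428, Col7a1 -0.1172, Col5a2 -0.1446, Col3a1 -0.0974, Col5a1 -0.0448, Col15a1 -0.0600, Col1a2 -0.0663, Col4a6 -0.3788, Col4a1 -0.0031, Col4a2 -0.0334, Col6a6 -0.0649, Col6a3 -0.1000, Col8a2 -0.0205, Col25a1 -0.0173, Col23a1 -0.0182, Col4a4 -0.0968, Col8a1 -0.2582, Col22a1 -0.0358, Col6a5 -0.1583 log2 units per unit. With edgeR the counts were 4 for diet in d3 females and 1 for sex in d3 CR mice. Of the 13776 genes tested, edgeR called 2705 and 1326 in these. With the muscle covariate the member counts were 5 for diet in WT females, 6 for sex averaged and 1 for sex in d3 CR mice. With the groups alone the count was 1 for sex in WT CR mice. For these covariate and groups-alone counts the shares of all genes were not computed. The causes were not tested.

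With 1 library left out, the diet counts were 10 to 17 averaged, 1 to 3 in d3 males, 1 to 2 in d3 females, 3 to 7 in WT males and 1 to 3 in WT females. The sex counts were 3 to 6 averaged, 0 to 1 in d3 CR, 2 to 4 in d3 AL, 0 to 1 in WT CR and 3 to 4 in WT AL mice. The sex by diet interaction gave 1 to 4, the muscle slope 14 to 24, and the genotype contrasts and both other interactions 0 in every fit. For fits with 1 library left out, here and above, the shares of all genes were not computed.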
